A study of Mus musculus with 18 samples.

Results

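The genes described here are 9 that mark tissue macrophages: C1qa, C1qb and C1qc, which encode the chains of complement C1q; Cd163, Mrc1 and Marco, which encode endocytic receptors; Adgre1, which encodes an adhesion receptor used to mark mouse macrophages; the adhesion molecule gene Vcam1; and Cd5l, which encodes a secreted scavenger protein. They were picked by gene symbol out of 19505 genes measured on Affymetrix Clariom S arrays, each by the probe set that the platform annotation gives to that symbol alone. Each of the 9 had 1 such probe set. The tested cells were adult bone marrow (BM) populations of C57Bl/6J mice aged 3 to 12 months, set against fetal liver (FL) populations of C57Bl/6J embryos at E13.5. Each source gave 3 sorted populations: LT-HSC, the stem cells that rebuild blood over the long term, ST-HSC, which do so for a shorter time, and MPP, the multipotent progenitors. All came from the LSK gate (lineage-negative, Sca-1 and Kit positive) and were told apart through Cd150 and Cd48. No transgene or treatment is part of the titles and source names, while the sample descriptions mention a marrow transplant and guides, as given below. The 6 groups, BM LT-HSC, BM ST-HSC, BM MPP, FL LT-HSC, FL ST-HSC and FL MPP, held 3 arrays each, lettered a, b and c. Whether a sample pooled several animals, and which antibodies made up the lineage gate, is not given in the sources used here.

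C1q is the recognition part of the first complement component. It binds antibody complexes and the surface of dying cells, and it passes the signal to the proteases C1r and C1s. Unlike most complement proteins, which hepatocytes make, C1q is made mainly by macrophages and dendritic cells. Macrophages of fetal liver and of bone marrow stand at the centre of erythroblastic islands, where they carry Adgre1 and Vcam1 on their surface and take up the nuclei that red cell precursors expel. Cd163 takes up hemoglobin bound to haptoglobin. Mrc1, the mannose receptor, binds glycoproteins with mannose-type sugars and is also found on sinusoidal endothelium of the liver. A lineage-negative gate is meant to leave mature myeloid cells out of the sorted cells.

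Sample descriptions and titles disagree: the descriptions mention a marrow transplant, with the guide sgEzh2 for 4 FL arrays (array a of LT-HSC, of ST-HSC and of MPP, and array b of MPP) and sgLuc for the rest. The groups here follow the titles and source names. The identifiers of all 3 BM LT-HSC arrays, and of no array of another group, end in the letter C, and 2 FL ST-HSC arrays end in B. What these letters stand for is not given, so that for BM LT-HSC they cannot be told apart from the group. The median log2 signal per array was 7.76 to 7.85. In 4 narrow arrays, BM LT-HSC c, BM ST-HSC b and c and FL LT-HSC b, the interquartile range was 2.56 to 2.67, against 2.93 to 3.15 in the other 14. Their lower quartile, 6.50 to 6.56, was above that of the other arrays, 6.27 to 6.42, so that dim probe sets read higher there. The sort marker gene Slamf1, which encodes Cd150, averaged 9.66 ± 0.40 in BM LT-HSC and 7.25 ± 0.14 in BM MPP, and 9.31 ± 0.18 in FL LT-HSC and 6.71 ± 0.24 in FL MPP (log2 signal, SD, n = 3). Cd48, which LT-HSC by their usual definition lack at the surface, stood apart in BM LT-HSC c: it was at 11.40 there, against 9.58 and 9.98 in the other BM LT-HSC arrays, 9.60 to 10.27 in BM ST-HSC and 12.19 to 12.35 in BM MPP.

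The start regions of the genes are shown for the members whose levels differed between BM and FL and whose promoter the RefSeq table of build GRCm38.p6 holds. Each sequence runs 5′ to 3′ on the gene's strand from 250 bases before the start to 50 bases after it. Capitals mark GAGGAA, the core bound by the macrophage factors PU.1 and Spi-C, and TGCTGA, the MAF core site, read on either strand. The promoter of C1qb lies at chr4:136886151-136886450 on the minus strand, that of C1qc at chr4:136892865-136893164 on the minus strand, that of Cd163 at chr6:124304401-124304700 on the plus strand and that of Mrc1 at chr2:14229164-14229463 on the plus strand.
C1qb: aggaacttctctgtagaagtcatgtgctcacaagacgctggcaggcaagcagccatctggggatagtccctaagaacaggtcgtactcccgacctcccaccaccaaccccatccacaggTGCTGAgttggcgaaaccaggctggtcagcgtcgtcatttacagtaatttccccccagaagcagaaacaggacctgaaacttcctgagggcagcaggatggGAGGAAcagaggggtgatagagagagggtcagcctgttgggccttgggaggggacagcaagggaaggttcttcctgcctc
C1qc: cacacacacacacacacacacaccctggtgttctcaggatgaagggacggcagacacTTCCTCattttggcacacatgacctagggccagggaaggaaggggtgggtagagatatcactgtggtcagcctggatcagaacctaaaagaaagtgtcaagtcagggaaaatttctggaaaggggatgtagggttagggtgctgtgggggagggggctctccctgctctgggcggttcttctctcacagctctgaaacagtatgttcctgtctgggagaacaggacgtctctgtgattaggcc
Cd163: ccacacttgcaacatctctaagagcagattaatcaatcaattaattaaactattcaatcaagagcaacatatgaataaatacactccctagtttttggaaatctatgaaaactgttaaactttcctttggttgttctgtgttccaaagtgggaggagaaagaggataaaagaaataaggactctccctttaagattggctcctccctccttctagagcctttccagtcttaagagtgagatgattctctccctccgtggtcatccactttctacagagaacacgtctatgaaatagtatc
Mrc1: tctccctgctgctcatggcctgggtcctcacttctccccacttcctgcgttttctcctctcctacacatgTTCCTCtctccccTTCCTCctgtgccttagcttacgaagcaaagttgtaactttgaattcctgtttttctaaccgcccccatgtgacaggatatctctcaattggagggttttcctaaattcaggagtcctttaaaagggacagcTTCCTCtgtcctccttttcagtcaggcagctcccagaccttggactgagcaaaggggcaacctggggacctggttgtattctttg
In Mrc1 the core stood 3 times, at -180, -167 and -35 from the start, always on the opposite strand. C1qb had it at -30 with the MAF core site at -131, and C1qc had it at -193 on the opposite strand. Cd163 held neither in this window. Among the other members with a promoter in the table, Cd5l held the core at -66 and the MAF core site at -54 and -46, and Marco held the core at -146. No 2 matches overlapped. Of 32851 promoters of 300 bases, 28.3% held GAGGAA and 19.5% held TGCTGA, so a match in a single promoter is common. The C/EBP forms TTGCNNAA and TTNCGCAA, the AP-1 site TGANTCA, the TATA box TATAAA and the interferon response element were searched on both strands too and had no match in the 6 promoters of members in the table. C1qb, C1qc and C1qa lie next to each other on chromosome 4 with no other annotated gene in the span they cover.

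C1qa (probe set TC0400003794.mm.2) separated the sources in every population. It read 8.81, 9.07 and 10.17 in BM LT-HSC a, b and c, 6.89, 7.63 and 7.19 in BM ST-HSC a, b and c, and 7.41, 7.24 and 7.02 in BM MPP a, b and c (log2 signal, as all levels below). The FL arrays read 6.02, 6.35 and 6.25 in LT-HSC, 5.97, 6.19 and 6.07 in ST-HSC and 5.75, 6.01 and 5.94 in MPP, in the order a, b, c. All 9 BM arrays lay above all 9 FL arrays, and the 3 BM LT-HSC arrays lay above all other arrays. By group mean the order was BM LT-HSC, BM ST-HSC, BM MPP, FL LT-HSC, FL ST-HSC and FL MPP. The arrays of BM ST-HSC and BM MPP overlapped, as did those of neighbouring FL groups, while the steps from BM LT-HSC to BM ST-HSC (2.11) and from BM MPP to FL LT-HSC (1.02) had no overlap.

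The other chains had narrower ranges than C1qa, 1.31 for C1qb and 1.82 for C1qc over the 18 arrays against 4.42 for C1qa; ranges of different probe sets need not stand on the same scale. C1qb (TC0400003792.mm.2) read 8.15, 8.02 and 8.67 in BM LT-HSC, 8.41, 8.02 and 7.97 in BM ST-HSC and 8.28, 7.79 and 7.96 in BM MPP. In FL it read 7.87, 7.49 and 7.72 in LT-HSC, 7.46, 7.38 and 7.35 in ST-HSC and 7.88, 7.37 and 7.43 in MPP. All arrays of BM LT-HSC lay above those of FL LT-HSC and all of BM ST-HSC above those of FL ST-HSC, while in MPP the sources overlapped. C1qc (TC0400003793.mm.2) read 6.93, 6.99 and 7.68 in BM LT-HSC, 6.91, 6.38 and 6.14 in BM ST-HSC and 6.75, 6.25 and 6.48 in BM MPP. In FL it read 6.47, 5.89 and 6.33 in LT-HSC, 6.28, 5.86 and 6.32 in ST-HSC and 6.05, 6.09 and 6.37 in MPP. Only in LT-HSC were the sources apart for C1qc, and BM LT-HSC was also apart from the next group, BM MPP, by 0.70.

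Cd163 (TC0600001418.mm.2) had another order than C1q. It read 7.43, 7.59 and 7.67 in BM LT-HSC, 7.04, 7.38 and 7.46 in BM ST-HSC and 7.94, 7.67 and 7.83 in BM MPP. The FL arrays read 5.61, 6.78 and 5.95 in LT-HSC, 6.48, 5.58 and 5.85 in ST-HSC and 5.97, 5.80 and 6.44 in MPP. Again all 9 BM arrays lay above all 9 FL arrays. The highest group was BM MPP, at 7.81 ± 0.14, and neighbouring BM groups overlapped (SD, n = 3). Of the 9 genes only Cd163 had its highest array outside BM LT-HSC c, in BM MPP a.

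Mrc1 (TC0200000245.mm.2) read 7.31, 8.29 and 9.38 in BM LT-HSC, 6.90, 6.29 and 6.33 in BM ST-HSC and 6.47, 6.38 and 6.43 in BM MPP. In FL it read 5.76, 5.65 and 6.15 in LT-HSC, 5.11, 6.98 and 5.27 in ST-HSC and 5.55, 5.51 and 5.21 in MPP. FL ST-HSC b stood above all BM ST-HSC and BM MPP arrays, and without it the sources did not overlap in any population. BM LT-HSC was apart from BM ST-HSC by 1.82, the largest step in the order of the groups, although its own arrays spanned more than 2 log2 units. The third receptor, Marco (TC0100002967.mm.2), a scavenger receptor that binds bacteria and particles, read 7.50, 7.60 and 8.14 in BM LT-HSC, 6.82, 7.77 and 7.79 in BM ST-HSC and 7.61, 7.14 and 7.40 in BM MPP. Its FL arrays lay between 7.21 and 7.61 with a median of 7.45, and neighbouring groups overlapped throughout.

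Adgre1 (TC1700001034.mm.2) read 7.82, 7.41 and 8.64 in BM LT-HSC, 7.63, 7.63 and 7.48 in BM ST-HSC and 7.51, 7.29 and 7.27 in BM MPP. In FL it read 7.29, 7.47 and 7.29 in LT-HSC, 7.17, 7.24 and 7.05 in ST-HSC and 7.67, 7.52 and 7.47 in MPP. In ST-HSC all BM arrays lay above the FL arrays, in MPP the mean was lower in BM, and in LT-HSC the sources overlapped. Vcam1 (TC0300002802.mm.2), which stromal and activated endothelial cells carry as well, read 6.38, 6.29 and 7.68 in BM LT-HSC, 6.25, 6.69 and 6.50 in BM ST-HSC and 6.55, 6.19 and 5.89 in BM MPP. The FL arrays read 6.08, 6.30 and 5.90 in LT-HSC, 5.71, 5.81 and 5.84 in ST-HSC and 6.14, 5.98 and 6.15 in MPP. BM and FL were apart in ST-HSC and overlapped in LT-HSC and MPP. Cd5l (TC0300000693.mm.2) read 7.04, 6.43 and 8.65 in BM LT-HSC, 7.17, 7.04 and 6.78 in BM ST-HSC and 7.11, 6.43 and 6.70 in BM MPP. Its FL arrays ran from 5.97 to 6.95 with a median of 6.63. BM LT-HSC a and b fell on either side of that range's upper end, and only array c stood far above it.

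**Figure D1:**
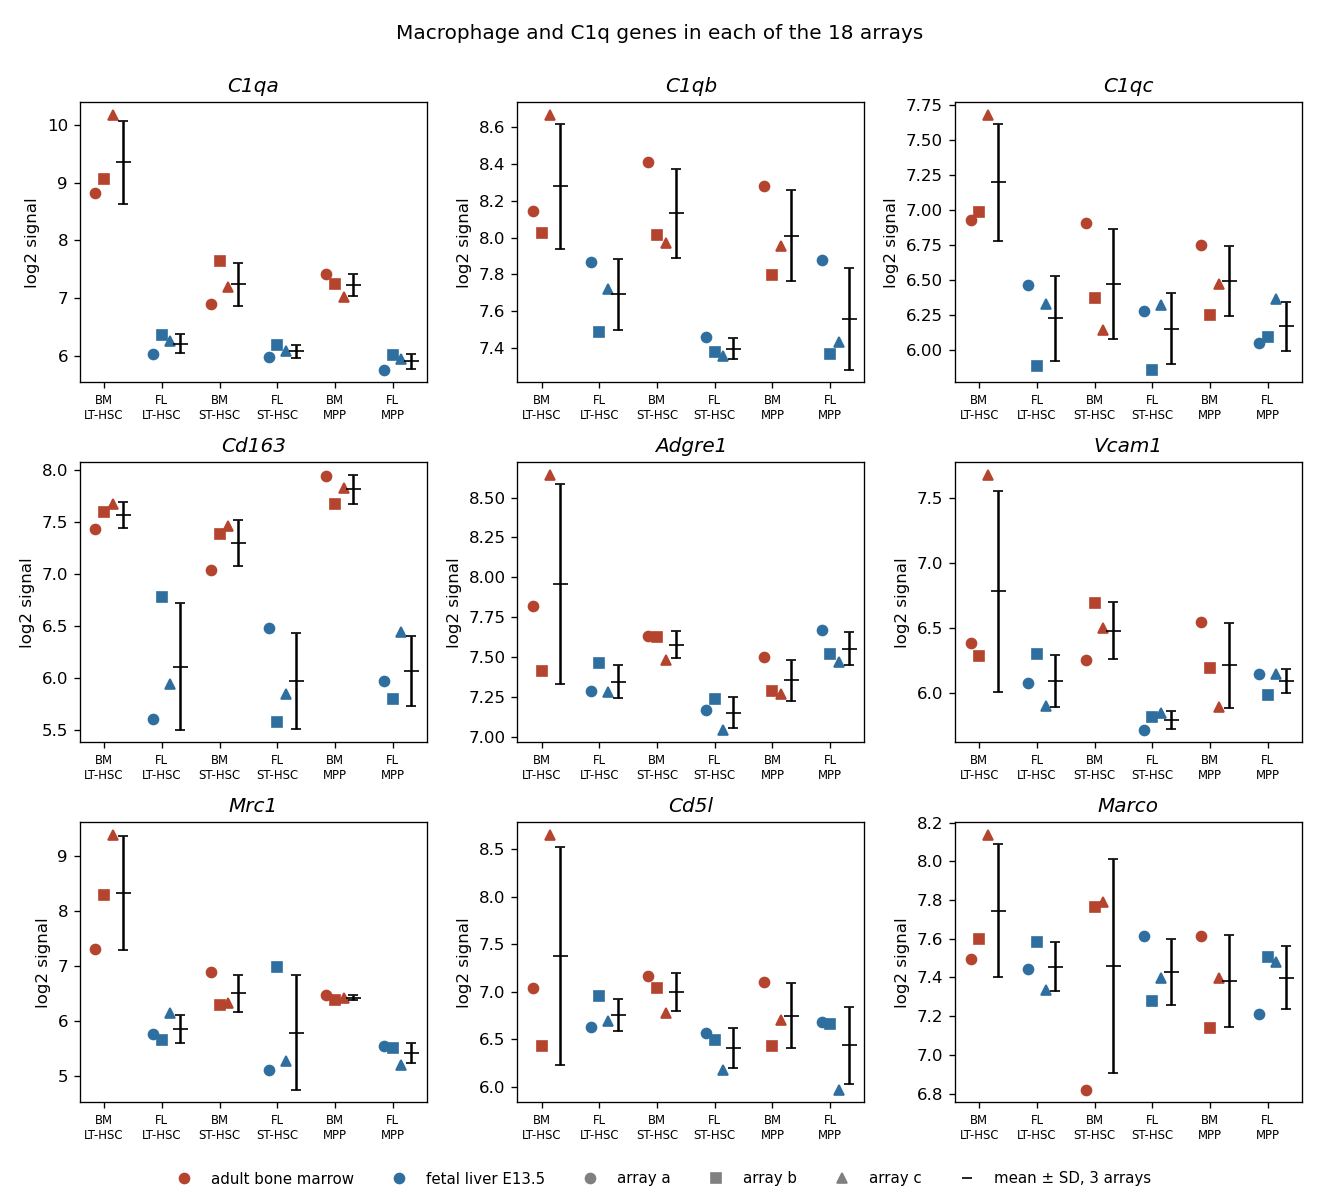
Log2 signal of the 9 genes in each of the 18 arrays (1 panel per gene, each with its own vertical axis). Points are arrays a, b and c of the group named below them, BM in red and FL in blue, and the black bar is mean ± SD of the 3 arrays. C1qa and Cd163 have all 9 BM arrays above all 9 FL arrays, and BM LT-HSC c is the highest array for 8 of the 9 genes.

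To ask whether the macrophage genes differed between adult and fetal cells, BM was compared with FL over the 3 populations weighted equally, in limma's fit of the 6 group means with Benjamini-Hochberg adjustment over all 19505 genes. A gene is called higher or lower at an adjusted p under 0.05. Of the 9 genes, 6 were higher in BM, none was lower and 3 were not called (8 had an unadjusted p under 0.05), where 9.26% of all genes were called higher and 15.9% lower. The median difference was 0.54 over the 9 and -0.01 over all genes. C1qa averaged 7.94 ± 1.14 in BM and 6.06 ± 0.18 in FL (SD, n = 9 each), a difference of 1.88 ± 0.15 (log2 ± SE, 3.67-fold, adjusted p = 3.98e-08). Cd163 averaged 7.56 ± 0.27 in BM and 6.05 ± 0.42 in FL, a difference of 1.51 ± 0.15 (2.84-fold, adjusted p = 8.06e-07). Mrc1 averaged 7.09 ± 1.08 in BM and 5.69 ± 0.58 in FL and differed by 1.40 ± 0.25 (2.64-fold, adjusted p = 0.000438). The remaining calls were smaller than 2-fold: C1qb at 0.59 ± 0.11 (adjusted p = 0.000537), C1qc at 0.54 ± 0.13 (0.00546) and Vcam1 at 0.50 ± 0.15 (0.0219). Vcam1 was not called without BM MPP a (0.44, adjusted p = 0.0522), and neither C1qc (0.53, 0.0648) nor Vcam1 (0.47, 0.199) without the 4 arrays described as sgEzh2. Not called were Cd5l at 0.50 ± 0.21 (adjusted p = 0.0986), Adgre1 at 0.28 ± 0.12 (0.0984) and Marco at 0.10 ± 0.13 (0.627). Single arrays moved Cd5l and Adgre1: without BM LT-HSC b both were called (Cd5l 0.66, adjusted p = 0.0122; Adgre1 0.37, 0.00951), and without BM LT-HSC c they stood at 0.29 (0.109) and 0.17 (0.123). Marco's 95% interval of -0.17 to 0.37 leaves out a 2-fold difference. Of the 9 genes, 2 had all 9 BM arrays above all 9 FL arrays, as had 1.63% of all genes. C1qa, Cd163 and Mrc1 were dim in FL, at percentiles of 15.8 to 23.2, 13.8 to 29.7 and 8.8 to 36.5 among all genes. C1qc and Vcam1 were dim there too, at 15.5 to 26.6 and 16.2 to 21.5. In BM the lowest percentiles of Vcam1, C1qc and Mrc1 were 17.8, 19.2 and 21.5. No detection calls were used, so the differences of all these genes rest on FL levels not known to be above background. For Vcam1, C1qc and Mrc1 this holds for some BM levels too. As whole sorted samples were measured, fewer cells of a type and less RNA per cell cannot be told apart.

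Within LT-HSC 4 of the 9 genes were higher in BM and 5 were not called, with 4.58% of all genes called higher and 3.08% lower. C1qa averaged 9.35 ± 0.72 in BM LT-HSC and 6.21 ± 0.17 in FL LT-HSC, a difference of 3.14 ± 0.26 (8.83-fold, adjusted p = 2.79e-07). Mrc1, at 8.33 ± 1.03 in BM and 5.86 ± 0.26 in FL, differed by 2.47 ± 0.43 (5.55-fold, adjusted p = 0.00112). Cd163 differed by 1.45 ± 0.26 (adjusted p = 0.00129) and C1qc by 0.97 ± 0.23 (adjusted p = 0.0118). C1qb, at 0.59 ± 0.19 (adjusted p = 0.0672), Adgre1, at 0.61 ± 0.20 (0.0822), Vcam1, at 0.69 ± 0.26 (0.136), Cd5l, at 0.62 ± 0.37 (0.399), and Marco, at 0.29 ± 0.22 (0.562), were not called. Without BM LT-HSC c the same 4 genes were called, at 2.73 for C1qa (adjusted p = 1.9e-08), 1.95 for Mrc1 (0.00362), 1.40 for Cd163 (0.00409) and 0.73 for C1qc (0.0484). The C1qc call was lost without FL LT-HSC b (0.80, adjusted p = 0.0609), without the 4 narrow arrays (0.56, 0.0741) and in a fit of only the groups compared (0.97, 0.11). Adgre1, when BM LT-HSC c was left out, stood at 0.27, Vcam1 at 0.24 and Cd5l at -0.02 in the same comparison, against 0.61, 0.69 and 0.62 with it. Without BM LT-HSC b 7 were called, with C1qb (0.71, adjusted p = 0.0394), Adgre1 (0.88, 0.00501) and Vcam1 (0.94, 0.0431) added.

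Within ST-HSC 3 genes were higher in BM, where 6.52% of all genes were. Cd163 averaged 7.30 ± 0.22 in BM ST-HSC and 5.97 ± 0.46 in FL ST-HSC, a difference of 1.33 ± 0.26 (adjusted p = 0.00226). C1qa differed by 1.16 ± 0.26 (adjusted p = 0.00532) and C1qb by 0.74 ± 0.19 (adjusted p = 0.0127). BM ST-HSC b and c are narrow arrays, in which dim probe sets read higher, while no FL ST-HSC array is narrow. Leaving out the 4 narrow arrays left BM ST-HSC a alone in its group. The differences were then 1.07 for Cd163, 0.82 for C1qa, 1.01 for C1qb, 0.75 for C1qc and 0.46 for Vcam1. Mrc1, at 0.72 ± 0.43, was not called (adjusted p = 0.247), and without FL ST-HSC b it was (1.31, adjusted p = 0.0404). That FL array also had the second highest mean over hepatocyte genes among the 18 arrays, 8.75, and the third highest over late erythroid genes, 9.73; their part in the Mrc1 level was not tested. With BM LT-HSC c left out of the fit, Vcam1 (0.69, adjusted p = 0.00434) and Adgre1 (0.43, 0.0188) were called in ST-HSC as well. Their estimates were the same with that array in the fit (limma, adjusted p = 0.0766 and 0.148). All groups share the estimate of a gene's spread, so an array of another group can change a call here. Within MPP 2 genes were higher in BM, against 3.55% of all genes. They were Cd163, at 7.81 ± 0.14 in BM MPP and 6.07 ± 0.33 in FL MPP (1.74 ± 0.26, adjusted p = 0.000265), and C1qa, at 7.23 ± 0.20 in BM MPP and 5.90 ± 0.13 in FL MPP (1.32 ± 0.26, adjusted p = 0.00319). With the 4 sgEzh2 arrays left out, the C1qa call was lost in MPP (1.29, adjusted p = 0.249) and in ST-HSC (1.11, 0.0542). Adgre1 had its only difference below 0 here, -0.20 ± 0.20 (adjusted p = 0.753).

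**Figure D2:**
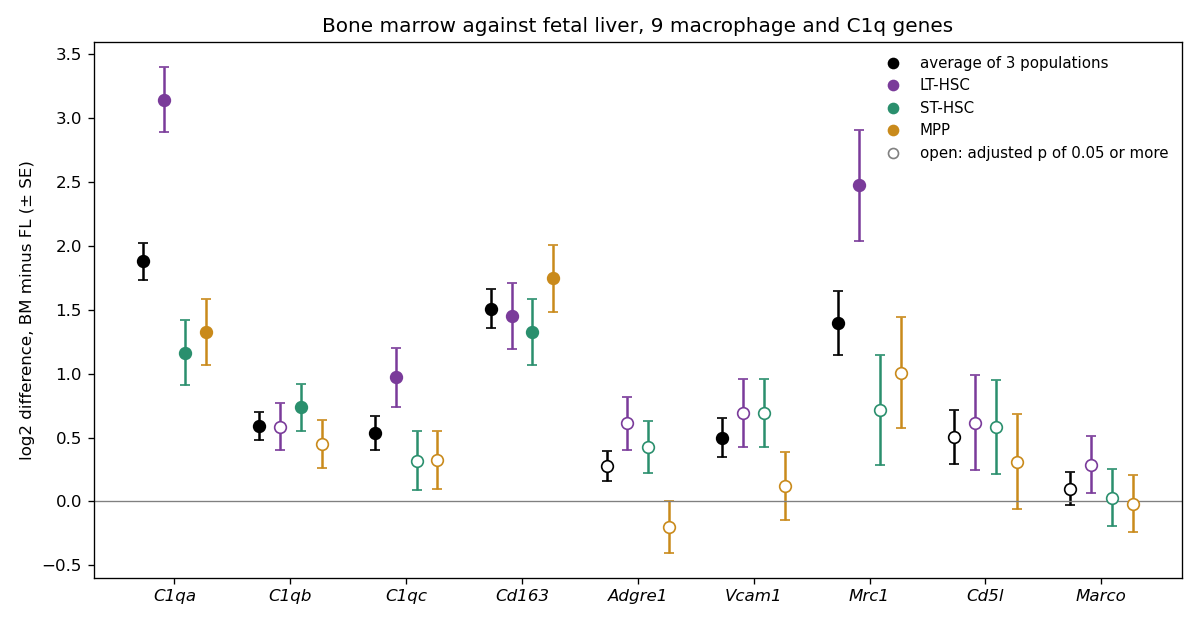
Difference of BM minus FL in log2 units (vertical axis) for the 9 genes, as the average of the 3 populations and within LT-HSC, ST-HSC and MPP, with bars of 1 SE from limma's fit over 18 arrays. Filled points have an adjusted p under 0.05. C1qa and Cd163 are filled in all 4 comparisons, and C1qa and Mrc1 reach their largest difference in LT-HSC, at 3.14 and 2.47.

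Among the BM populations, C1qa and Mrc1 were higher in LT-HSC. Against MPP, 2 of the 9 genes were called higher, where 2.23% of all genes were, with C1qa at 2.12 ± 0.26 (4.36-fold, adjusted p = 5.37e-05) and Mrc1 at 1.90 ± 0.43 (3.73-fold, adjusted p = 0.0155). Against ST-HSC the same 2 genes were called, where 1.21% of all genes were, C1qa at 2.11 ± 0.26 (adjusted p = 0.000179) and Mrc1 at 1.82 ± 0.43 (adjusted p = 0.0396). Without BM LT-HSC c the C1qa differences were 1.71 (adjusted p = 7.46e-06) against MPP and 1.70 (4.34e-05) against ST-HSC, and those of Mrc1 were 1.37 (0.0495) and 1.30 (0.0718). The call of Mrc1 against MPP was lost in 4 of its 28 alternatives, without BM MPP b (adjusted p = 0.0684), without BM MPP c (0.0552), without the 4 narrow arrays (1.37, 0.0519) and with only the groups compared (0.0908). The call of Mrc1 against ST-HSC was lost in 15 of its 28 alternatives, and the replicate block was among them (adjusted p = 0.0556). C1qc, at 0.71 ± 0.23 against MPP (adjusted p = 0.0973) and 0.72 ± 0.23 against ST-HSC (0.131), was not called. The estimates for Cd163 were -0.25 ± 0.26 in LT-HSC minus MPP and 0.27 ± 0.26 in LT-HSC minus ST-HSC. ST-HSC minus MPP in BM gave no call among the 9, and 0 had an unadjusted p under 0.05 in limma, with 6.1% of all genes called higher or lower; C1qa differed there by 0.01, with a 95% interval of -0.53 to 0.55.

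Among the FL populations limma called none of the 9 genes, and 0 had an unadjusted p under 0.05 in each of the 3 comparisons. Of all genes, 3.4% were called in LT-HSC minus MPP, 0.559% in LT-HSC minus ST-HSC and 2.26% in ST-HSC minus MPP. C1qa differed by 0.30 ± 0.26 and Mrc1 by 0.43 ± 0.43 between LT-HSC and MPP of FL. Their 95% intervals were -0.23 to 0.84 for C1qa and -0.48 to 1.35 for Mrc1. In BM the intervals of the same comparison were 1.58 to 2.66 for C1qa, apart from that of FL, and 0.99 to 2.81 for Mrc1, which overlaps that of FL. With array weights 1 of the 9 genes was called lower in ST-HSC than in MPP of FL. Several members were dim in FL. Their percentile among all genes of an FL array was 15.8 to 23.2 for C1qa, 15.5 to 26.6 for C1qc and 13.8 to 29.7 for Cd163. It was 16.2 to 21.5 for Vcam1, 8.8 to 36.5 for Mrc1 and 19.1 to 33.0 for Cd5l. C1qb, Adgre1 and Marco lay between 36.7 and 51.5. No detection calls were used, so whether the dim genes were detected in FL was not tested.

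The difference between BM and FL was itself compared between populations. For C1qa it was larger in LT-HSC than in MPP by 1.82 ± 0.36 (adjusted p = 0.0258) and larger than in ST-HSC by 1.98 ± 0.36 (adjusted p = 0.0166). In each of these 2 tests 1 of the 9 genes was called, and 0.328% of all genes were called higher in each. Mrc1 had estimates of 1.46 ± 0.61 (adjusted p = 0.589) and 1.76 ± 0.61 (adjusted p = 0.27), and Cd163 of -0.29 ± 0.37 (0.998) and 0.13 ± 0.37 (0.905), none of them called. Without BM LT-HSC c C1qa stood at 1.41 (adjusted p = 0.00521) and 1.57 (0.00326). The C1qa call was lost in 9 of 29 alternatives against MPP and in 5 of 29 against ST-HSC, with values of 1.41 to 2.09 and 1.55 to 2.25 over the alternatives. Among them were FL LT-HSC a, FL LT-HSC c, BM MPP b, BM MPP c and each FL MPP array, left out in turn, against MPP (adjusted p between 0.0511 and 0.091), and FL LT-HSC a, BM ST-HSC c and FL ST-HSC b, left out in turn, against ST-HSC (0.0565 to 0.0601). Both calls were lost with only the groups compared (limma, adjusted p = 0.0774 against MPP and 0.128 against ST-HSC). Both calls were also lost without the 4 arrays described as sgEzh2, which left FL MPP c alone in its group. The estimates were then 1.76 and 1.94.

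Array BM LT-HSC c carried the highest value of 8 of the 9 genes, where 12.2% of all genes had their highest value in it. The gap to the next array was 1.48 for Cd5l, 1.10 for C1qa, 1.09 for Mrc1, 0.99 for Vcam1, 0.82 for Adgre1, 0.69 for C1qc, 0.35 for Marco and 0.26 for C1qb. The mean of the 9 genes, each taken as its deviation from its own mean over the 18 arrays, was 1.58 in this array, 0.54 and 0.58 in BM LT-HSC a and b, -0.01 to 0.35 in the other BM arrays and -0.57 to -0.23 in the FL arrays. In this mean BM LT-HSC a and b also stood above the BM ST-HSC and BM MPP arrays, and all FL arrays lay below all BM arrays. The deviations were not scaled, so C1qa and Mrc1, with an SD of 1.248 and 1.106 over the 18 arrays, weighed most in it. Gene by gene, BM LT-HSC a and b both stood above all BM ST-HSC and BM MPP arrays for C1qa, C1qc and Mrc1. For the other members they did not. The same array was the highest for 12 of 12 late neutrophil genes, 15 of 23 other macrophage genes, 6 of 9 monocyte genes and 0 of 9 endothelial genes. It was also the highest for 7 of 12 scavenger and lectin receptor, 5 of 11 iron handling, 4 of 9 B cell and 4 of 8 stromal genes. For hepatocyte genes it was so in 1 of 9, for dendritic cell genes in 1 of 7 and for late erythroid genes in 0 of 6. BM LT-HSC c is 1 of the 4 narrow arrays and had the lowest array weight, 0.16. The part of these in the levels of the 9 genes was not tested.

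**Figure D3:**
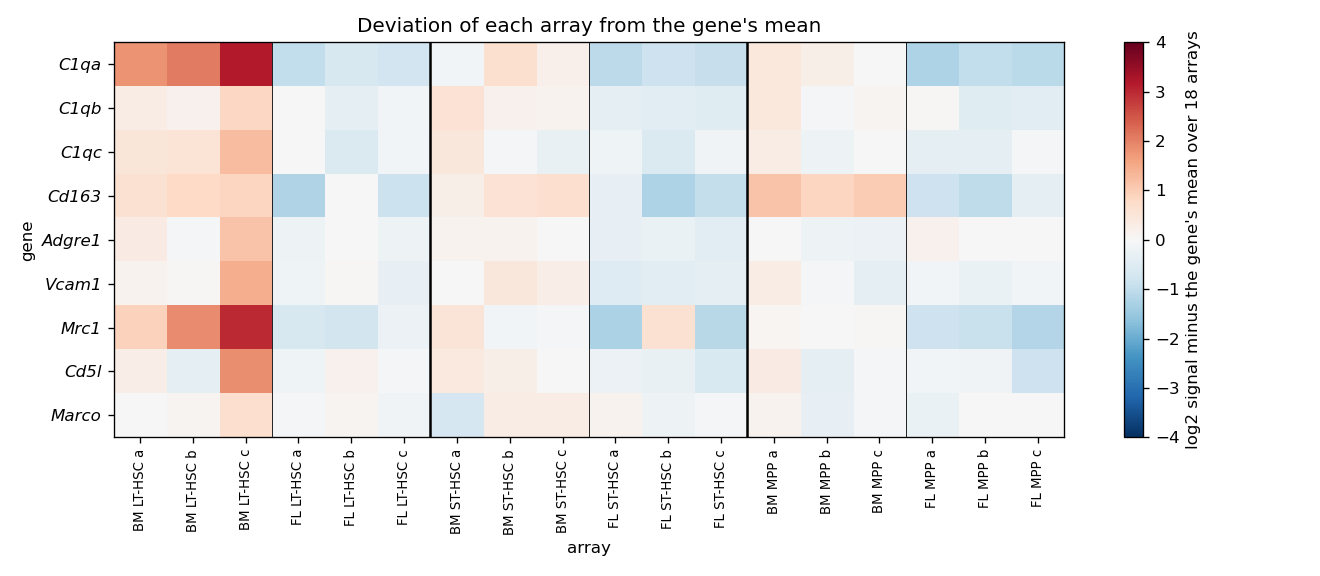
Deviation of each array (columns, BM left of FL within each population) from the mean of the gene over the 18 arrays (rows, the 9 genes), in log2 units as the colour scale gives. Red is above the mean and blue below it. BM LT-HSC c is above the mean for all 9 genes, and the FL arrays are mostly below it, with Mrc1 in FL ST-HSC b as an exception.

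Covariation of the 9 genes was described over their 36 pairs, with arrays as points that share group and source. Pearson's r had a median of 0.69 (Spearman's rho 0.54) over the 18 arrays, from 0.21 to 0.91, where the median r of a member with all genes was -0.02. Without BM LT-HSC c the median was 0.46 over 17 arrays. Over the 9 BM arrays it was 0.65, and over the 8 without BM LT-HSC c it was 0.18. Over the 9 FL arrays it was 0.08, with 15 of 36 pairs below 0. As deviations from the 6 group means the median was 0.44 over 18 arrays and 0.00 over the 17 without BM LT-HSC c. Without that array 17 of the 36 pairs of deviations were below 0. The highest pair over the 18 arrays was C1qa with Mrc1 (r = 0.91, rho = 0.83), followed by Adgre1 with Vcam1 (r = 0.90, rho = 0.76). The lowest was C1qb with Marco (r = 0.21, rho = 0.28). Among the C1q chains, C1qa with C1qb had r = 0.76 over the 18 arrays. It was -0.05 over the 8 BM arrays without BM LT-HSC c, -0.30 over the FL arrays and -0.47 as deviations without BM LT-HSC c. In the same order C1qa with C1qc had 0.83, 0.57, -0.31 and -0.37. C1qb with C1qc had 0.81, 0.68, 0.28 and 0.61.

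The genes whose pattern over the 18 arrays was most like the mean of C1qa, C1qb and C1qc were, in order, Slc11a1 (r = 0.981), an iron and manganese transporter of phagosomes, the ficolin gene Fcna (0.979), the galectin gene Lgals3 (0.968), Il1rn (0.966), Ms4a7 (0.966), Cd177 (0.964), Xdh (0.959), the lysozyme gene Lyz2 (0.957), Spib (0.954) and Ifitm6 (0.953). The mean was taken over unscaled values, so C1qa weighed most in it. The SD over the 18 arrays was 1.248 for C1qa, 0.385 for C1qb and 0.453 for C1qc. Slc11a1, Fcna and Lgals3 were also the first 3 in the 17 arrays without BM LT-HSC c, at 0.967, 0.963 and 0.954. Of the first 10, 6 stayed among the first 10 without it. Of the 10 genes most like C1q in their deviations from the 6 group means, Mgst2 stayed first without that array (r = 0.861, against 0.955 with it). The other 9, Rasgrp4, Sirpb1c, Fn1, Gapt, Slc11a1, Ccl6, Ctsh, Cfp and Tyrobp, left the first 10, with r of 0.565 to 0.79. In the deviations without that array C1qa ran against C1qb (r = -0.47) and C1qc (r = -0.37), so the mean joined opposed patterns there.

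Per gene, the first 3 by r over the 18 arrays were Fcna, Slc11a1 and Slfn4 for C1qa, Ms4a7, Adam19 and Il1b for C1qb, and Pygl, Degs1 and Ifi30 for C1qc. For Cd163 they were Ly6c2 (0.946), Ly6c1 (0.933) and the MHC class II gene H2-Eb1 (0.919), all little changed without BM LT-HSC c (0.946, 0.932 and 0.914); Ly6c1 and Ly6c2 are close paralogs whose probes may share signal. For Mrc1 they were the fatty acid binding protein gene Fabp4 (0.928), the scavenger receptor gene Cd36 (0.926) and App (0.925). Adgre1 was most like Cd300ld, Tarm1 and Slco4c1, Vcam1 like Gm5150, Ceacam2 and Cp, Cd5l like Parvb, Pnpla1 and Scrg1, and Marco like Abcc9, Dcdc2b and Steap4, with r between 0.879 and 0.94.

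Of 23 other macrophage genes measured, 11 were higher in BM in the average and 12 were not called (median 0.29), where 9.26% of all genes were higher. Within LT-HSC 12 were higher and 11 were not called (median 0.82), where 4.58% of all genes were higher. Within ST-HSC 6 were higher and 1 was lower (median 0.16, with 6.52% of all genes higher), and within MPP 3 were higher and 20 were not called (median 0.06, with 3.55% of all genes higher). The cathepsin gene Ctss differed by 3.05 ± 0.26 in LT-HSC (adjusted p = 4.47e-07), Aif1, which encodes the macrophage protein Iba1, by 2.47 ± 0.30 (2.56e-05), the receptor of the macrophage growth factor, Csf1r, by 2.00 ± 0.29 (0.000193), the receptor tyrosine kinase Axl, which helps to clear dying cells, by 1.90 ± 0.19 (2.91e-06) and Lgals3 by 1.75 ± 0.28 (0.000396). Csf1r was at 9.12 ± 0.90 in BM LT-HSC and 7.12 ± 0.27 in FL LT-HSC, and at 9.37 ± 0.26 in BM MPP and 9.96 ± 0.03 in FL MPP. The Kupffer cell gene Clec4f was at 6.55 ± 0.15 in BM LT-HSC and 6.71 ± 0.21 in FL LT-HSC, and Vsig4 at 6.59 ± 0.47 in BM LT-HSC and 6.52 ± 0.42 in FL LT-HSC, and neither was called. With BM LT-HSC c left out, 11 of the 23 were higher in the average (median 0.16), with 10.3% of all genes, and 11 in LT-HSC (median 0.52), with 5.94% of all genes.

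Of 11 measured genes of the complement cascade, 2 were higher in BM, 1 was lower and 8 were not called in the average (median 0.02). That share is near the background, since 9.26% of all genes were higher and 15.9% lower, and so is that of the regulators below. The protease gene C1ra, whose product binds C1q, was higher by 0.97 ± 0.07 (adjusted p = 2.53e-08), the anaphylatoxin receptor gene C5ar1 by 0.60 ± 0.16, and the factor B gene Cfb was lower (-0.45 ± 0.12). Of 8 complement regulators 1 was higher, the clusterin gene Clu (0.34 ± 0.12), and 1 lower, the vitronectin gene Vtn (-0.39 ± 0.13). Of 8 genes of C1q and complement receptors, Calr was higher by 0.30 ± 0.07 and Cd93 and C1qbp were lower, Cd93 at -0.23 ± 0.08 and C1qbp at -0.24 ± 0.06. Within LT-HSC Cd93 was lower, at -0.58 ± 0.13, and the complement receptor chains Itgam and Itgb2 were higher by 1.01 ± 0.29 and 0.96 ± 0.21. With BM LT-HSC c left out Itgam stood at 0.51 in LT-HSC and was not called (adjusted p = 0.102), nor was Cd93 in the average (-0.19, 0.0656).

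Of 12 other scavenger and lectin receptor genes, 3 were higher in BM in the average, 1 was lower and 8 were not called. Of all genes, 9.26% were higher and 15.9% lower in the average. Cd36 was higher by 1.08 ± 0.26 in the average and by 1.81 ± 0.46 within LT-HSC. The oxidized lipoprotein receptor gene Olr1 was higher by 1.97 ± 0.45 within LT-HSC. Mrc2, the closest relative of Mrc1 in this list, was lower, at -0.41 ± 0.12. Within LT-HSC this list had 3 genes higher, where 4.58% of all genes were. With BM LT-HSC c left out it had 1 gene higher there, where 5.94% of all genes were. Cd36 was then not called in LT-HSC (1.23, adjusted p = 0.0725). Of 11 genes of hemoglobin and iron handling 5 were higher and 6 were not called. Haptoglobin, Hp, whose complex with hemoglobin is the ligand of Cd163, was higher by 2.19 ± 0.21 in the average and by 3.91 ± 0.36 in LT-HSC, and the iron exporter gene Slc40a1 by 1.25 ± 0.23 in the average and 1.60 ± 0.40 in LT-HSC, the last at 0.86 without BM LT-HSC c (adjusted p = 0.0139). Of 11 Vcam1 partners and other integrin ligands, 1 was higher, 2 were lower and 8 were not called, which is near the shares over all genes. The chain Itga4, part of the main Vcam1 receptor, was lower in BM, at -0.45 ± 0.09. Itga9 was lower too, at -1.51 ± 0.10, and Itgb7 was higher by 0.55 ± 0.09.

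Markers of other mature cells differed between the same groups. Of all genes, 9.26% were higher in BM and 15.9% lower in the average. Within LT-HSC 4.58% were higher and 3.08% lower. Mean log2 signal over 12 late neutrophil genes was 9.72 to 12.30 in the BM arrays and 6.41 to 7.38 in the FL arrays, and all 12 genes were higher in BM in the average (median 4.25) and within LT-HSC (median 5.08), where S100a8 differed by 6.37 ± 0.53 and Lcn2 by 6.07 ± 0.47. Over 9 monocyte genes the means were 8.96 to 10.75 in BM and 7.94 to 8.58 in FL, with 8 genes higher and 1, Fn1, lower in the average; Ly6c2 differed by 4.67 ± 0.20. Over 9 B cell genes they were 8.06 to 9.82 in BM and 7.21 to 7.88 in FL, with 7 higher, Jchain among them at 3.59 ± 0.25. The part of these lists in the differences of the 9 genes was not tested. All these ranges of BM and FL were apart, as was that of the 9 genes themselves, 6.93 to 8.52 in BM and 6.37 to 6.72 in FL.

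Within BM the late neutrophil means ran in the order LT-HSC, ST-HSC, MPP, while monocyte and B cell means were lowest in ST-HSC. The late neutrophil means were 10.80 to 12.30 in BM LT-HSC, 10.23 to 10.74 in BM ST-HSC and 9.72 to 10.19 in BM MPP. The monocyte means, 9.42 to 10.75 in BM LT-HSC, were 8.96 to 9.13 in BM ST-HSC and 9.45 to 9.69 in BM MPP, with overlap of BM LT-HSC and BM MPP. The B cell means were 8.75 to 9.82 in BM LT-HSC, 8.06 to 8.23 in BM ST-HSC and 8.88 to 9.53 in BM MPP. Of the other lists, stromal genes had 3 of 8 higher in BM in the average, Sparc among them (1.42 ± 0.26), with means of 7.01 to 8.19 in BM and 6.61 to 7.06 in FL. Endothelial genes had 6 of 9 lower in BM and hepatocyte genes 4 of 9 lower and 1 higher, with Alb at -2.71 ± 0.40 and Cdh5 at -1.51 ± 0.12. Without BM LT-HSC c the hepatocyte list had 4 lower and 0 higher. Late erythroid genes had 1 higher and 1 lower of 6, Car1 at 3.60 ± 0.27 and Hbb-y at -2.20 ± 0.44. Of 7 dendritic cell genes 2 were higher and 1 was lower, with Clec9a at 0.96 ± 0.14 and Ccr9 at -1.50 ± 0.21. All these counts stand beside 9.26% of all genes higher and 15.9% lower in the average. In lists as short as the last 2, 1 gene lower is near that share.

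**Figure D4:**
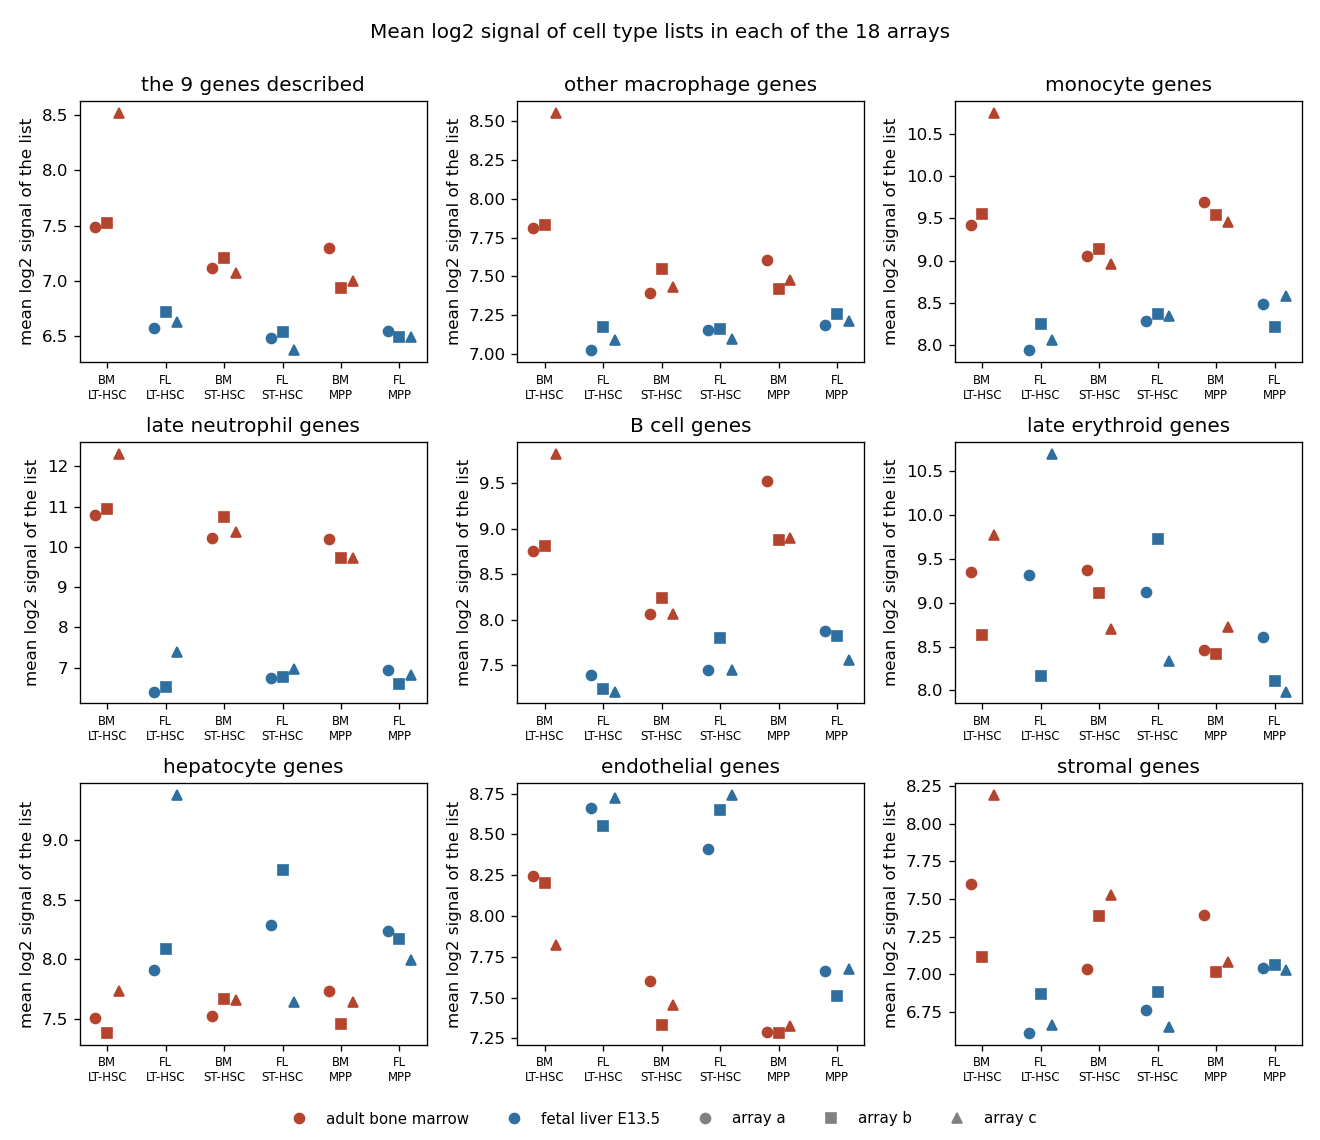
Mean log2 signal of the 9 genes and of 8 marker lists in each of the 18 arrays (1 panel per list, each with its own vertical axis), BM in red and FL in blue, points shaped by the letter a, b or c. BM LT-HSC c is the highest array for the 9 genes, other macrophage, monocyte, late neutrophil, B cell and stromal genes, and late neutrophil means run from 9.72 to 12.30 in BM and from 6.41 to 7.38 in FL.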

How the data were processed

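RNA of 18 sorted samples was measured on Clariom S arrays after amplification from 2 ng of total RNA, per the labels' protocols. The authors deposited a log2 signal for each probe set and array, made with R 3.5.01 and oligo per the submitters' processing notes; that they are log2 was read from their range. How background was corrected and arrays were normalized is not stated in the labels, and no detection calls were used. Of 22203 probe sets, 19572 had a single gene symbol by the platform annotation, while 2631 had several or none. Where a gene had several, the one with the highest mean over 18 arrays was kept, which set 67 aside.

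Groups were compared with limma 3.58.1 in R 4.3.3, in 1 fit of 6 group means with empirical Bayes moderation and Benjamini-Hochberg adjustment, and the code was tested on simulated data. Whether replicate arrays stem from different animals is not stated, so a p-value here reflects only the spread between the samples, which may be technical; precision is limited by the number of arrays. The members and lists were chosen with earlier results of these data known. Named were all 9 members, up to 5 genes per list with the largest called difference and a list's defining markers, and the genes most like the members by Pearson's r; Fn1 was named after its values were seen. Genes of the lists without a probe set of their own were not analysed here. Alternatives were arrays left out, other scaling, filters, probe sets and variance models. RefSeq gave names, neighbours and promoters. The labels do not say whether the letters a, b and c pair the arrays, and the main fit used no pairing.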

Additional observations from a re-analysis of the deposited data

Results flagged for a closer look

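The difference between BM and FL in C1qa was larger in LT-HSC than in MPP by 1.82 on the log2 scale (limma, adjusted p = 0.0258) and larger than in ST-HSC by 1.98 (adjusted p = 0.0166). Both were singled out because the difference between populations was itself past the threshold. The call was lost in 9 of 29 alternatives against MPP and in 5 of 29 against ST-HSC. All 3 BM LT-HSC arrays lay above all other arrays for C1qa, and array c was the highest of them. The late neutrophil list was also highest in BM LT-HSC, at 10.80 to 12.30, and its part in the C1qa result was not tested. Groups of 3 arrays were not screened for outlying values one gene at a time; over all genes, BM LT-HSC c and BM ST-HSC a had the lowest array weights, 0.16 and 0.246.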

How the results depend on the processing

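No direction of a called difference among the 9 genes was turned by an alternative. In the average of BM minus FL 6 genes were called, against 3 without the dimmest 30% of genes, where C1qc, Vcam1 and Mrc1 were no longer tested, and 3 when a 2-fold difference was also asked for; with each array left out in turn it was 5 to 8. In LT-HSC 4 were called, 2 without the dimmest 30%, 3 without the 4 narrow arrays, and 3 to 7 with an array left out, 7 without BM LT-HSC b. In ST-HSC 3 were called, 6 with array weights, 5 with only the groups compared, and 3 to 5 with an array left out, 5 without BM LT-HSC c. In MPP 2 were called, 1 without the 4 arrays described as sgEzh2, 4 with array weights, and 2 with any array left out. For LT-HSC minus MPP in BM 2 were called, 1 without the 4 narrow arrays, 1 without the dimmest 30%, 1 with only the groups compared, and 1 to 3 with an array left out. For LT-HSC minus ST-HSC in BM 2 were called, 1 without the sgEzh2 arrays, 1 without the narrow arrays, 1 without the dimmest 30%, 1 with the replicate block, 0 with only the groups compared, and 1 to 3 with an array left out. The comparisons with no call stayed at 0, except 1 gene in ST-HSC minus MPP in FL with array weights. Each interaction called 1 gene, 0 without the sgEzh2 arrays, 0 with only the groups compared, and 0 to 1 with an array left out. Where no construction is named, the cause was not tested. Arrays with the same letter deviated from their group means with r of -0.46 to 0.53 (median -0.03, 45 pairs). Those with different letters did so with -0.61 to 0.55 (median 0.02, 90 pairs). These pairs include those that join BM with FL, so pairing by letter within a source was not tested. The replicate block also brought C1qb in LT-HSC past the threshold (limma, adjusted p = 0.0343).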
